A study of Mus musculus with 5 samples.

Results

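Claudins, cadherins, connexins and the adhesion protein gene Epcam were followed in mouse liver tumours driven by Akt and the intracellular domain of Notch (NICD), with and without late overexpression of Prox1. The set was chosen by name: every gene whose symbol is Cldn, Cdh, Gja, Gjb or Gjc followed by a number, plus Epcam, with a mean of at least 10 normalised counts over the 5 libraries. Of 63 genes with such a name, 40 passed this minimum, out of 17105 genes tested in all. They were 14 claudins, 16 cadherins, 9 connexins and Epcam. Of the 23 that did not pass, 7 had no read in any library, among them Cdh7, Cdh12, Cldn16, Cldn22, Cldn24 and Gjb6. Just inside the minimum was Cdh9 (mean 13.55), and those just outside were Gja3 (8.70) and Cdh22 (7.56).

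Bulk RNA was sequenced from tumours dissected from female C57BL/6N mice that had received plasmids by hydrodynamic injection into the tail vein at 8 weeks of age, a route by which hepatocytes take up DNA. Both groups carried CMV-Sleeping Beauty transposase, pT3-EF1a-AKT and pT3-EF1a-NICD-IRES-rtTA, so that Akt and NICD ran from a constitutive promoter in whichever cells integrated the plasmids. The 3 Prox1 OE libraries also carried pT3-Tre-FLAG-mmProx1-IRES-GFP and the 2 Control libraries pT3-Tre-IRES-GFP, with food containing 6.25% doxycycline from day 21 to switch on the Tre promoter between week 3 and week 4. Collection followed a week of overexpression or came at a humane endpoint, and the labels do not say which applied to which tumour, nor whether the libraries of a group came from separate animals, so p-values measure only the spread between these samples.

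These proteins hold neighbouring epithelial cells together and decide what passes between them. Cadherins span the gap between cells at adherens junctions and bind catenins inside the cell. Claudins are the strands of tight junctions, which in liver seal the bile canaliculus between hepatocytes and the lumen of bile ducts, and each claudin sets which ions pass. Connexins assemble into gap junction channels that let small molecules move from cell to cell. Hepatocytes and bile duct cells use different members of each family, and blood vessels use others again.

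Libraries held 48740863 to 56629477 reads, and 1 read was worth 0.822 to 1.18 normalised counts, the unit of all levels given here (reads divided by the size factor of the library). Prox1 itself stood at 4153 and 4664 in Control replicates 1 and 2, and with Prox1 OE it reached 48090, 11113 and 8231 in replicates 1, 2 and 3. All 3 values were above both Control libraries, but Prox1 OE replicate 1 was far above the others and the difference missed the threshold (log2 fold change 1.90, SE 0.66, limma adjusted p 0.061). Without that library it was 1.12, with an adjusted p of 0.0056. Markers of several cell types moved with the groups, whereas 8 of 10 endothelial markers gave no call. Of 9 hepatocyte markers 8 were higher in Prox1 OE, with a summed level of 1003390 to 1503531 in Control and 3018426 to 4413204 in Prox1 OE, and of 7 bile duct markers 6 were lower, with sums of 750054 to 818756 and 520104 to 702454. The bile duct sums were nearly all Spp1, the marker not called (-0.34, adjusted p 0.51), and the 6 called included Krt19 (-2.41), Krt7 (-2.50) and Cftr (-1.92). Most of the hepatocyte sum was Alb and Trf, the latter being the hepatocyte marker not called (1.09, adjusted p 0.066). Immune markers were higher for 2 of 7, with sums of 14541 to 18562 and 22218 to 37416. Most of the immune sum was Lyz2, which was not called (0.70, adjusted p 0.11). Of 5 pancreatic acinar markers 3 passed the minimum, with 1 higher and 1 lower, and Cpa1 and Cpb1 were at or below 3 reads in every library. The part of these shifts in the values that follow was not tested. In bulk tumour RNA, fewer cells of a type and less RNA per cell cannot be told apart.

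Of the 40 genes, 5 were higher and 14 were lower in Prox1 OE at a limma adjusted p under 0.05, and 21 did not pass. These were 12.5% and 35.0% of the genes, against 17.1% higher and 16.2% lower of all 17105 genes tested. The median log2 fold change was -0.17 over the 40 genes and -0.02 over all genes. Values of the groups did not overlap for 28 genes (70.0%, against 63.3% of all genes), of which 10 were higher and 18 lower. By family, no cadherin rose and 6 of 16 fell, 1 claudin rose and 5 of 14 fell, and 4 connexins rose while 2 of 9 fell. Median log2 fold changes were -0.74 for cadherins, -0.03 for claudins and 0.54 for connexins. Cdh8, Cldn10 and Cldn11 were among 4 genes that passed the minimum with a mean below it in Prox1 OE, so that only genes high in Control could enter that way.

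**Figure D1:**
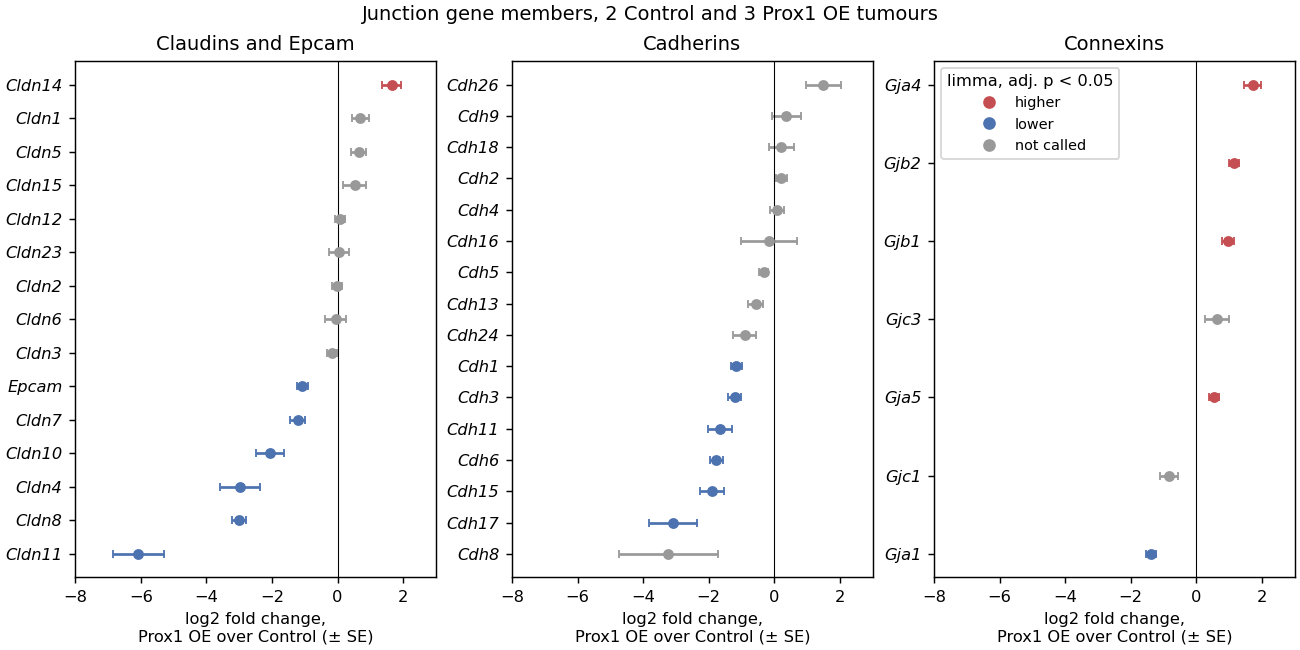
Log2 fold change of the genes described here (x axis, Prox1 OE over Control, log2(normalised count + 1) scale), with claudins and Epcam, cadherins and connexins in separate panels, each ordered by its estimate. Points are limma estimates, bars are ± 1 SE, red was called higher, blue lower and grey not called; cadherins run from Cdh8 at -3.24 to Cdh26 at 1.49 with no red point, and the hepatocyte connexins Gjb1 and Gjb2 stand at 0.98 and 1.15.

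Cdh1 encodes E-cadherin, the cadherin of epithelial adherens junctions and per kb of exon it had the highest level of its family here. Its levels were 26155 and 24490 in Control and 13077, 12039 and 9238 in Prox1 OE, a log2 fold change of -1.16 (SE 0.17, limma adjusted p 0.0037). Every Prox1 OE library was below both Control libraries, and the Control pair lay close together. Cdh3 encodes P-cadherin, a classical cadherin of basal epithelia, and lies 46.1 kb upstream of Cdh1 on the same strand of chromosome 8 (build mm10, Cdh3 at 106510891 to 106557297 and Cdh1 at 106603351 to 106670246). It read 512.7 and 536.6 in Control and 258.7, 236.0 and 187.5 in Prox1 OE, a change of -1.21 (SE 0.19, adjusted p 0.0045) close to that of Cdh1.

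Cdh6 encodes K-cadherin, known from the developing kidney tubule. It fell from 4372 and 4078 to 1407, 1460 and 927, a log2 fold change of -1.77 (SE 0.20, adjusted p 0.0025). The groups were far apart relative to the spread within each. Cdh15, or M-cadherin, is best known from muscle. Its Control values of 932.5 and 504.4 differed from each other, and its Prox1 OE values of 280.2, 156.9 and 138.9 all lay below the lower one (-1.90, SE 0.36, adjusted p 0.0085). Cdh17 encodes LI-cadherin, an intestinal cadherin with a short cytoplasmic tail. It stood at 200.5 and 498.4 in Control and at 97.14, 29.50 and 16.20 in Prox1 OE, with wide spread in both groups but no overlap (-3.09, SE 0.72, adjusted p 0.016). Of the 6 intestinal markers in the fixed list, 3 passed the minimum, with 1 higher and 1 lower, a summed level of 2734 to 3364 in Control and 7821 to 12977 in Prox1 OE, and Cdx1 and Cdx2 at or below 3 reads in every library. Most of that sum was Fabp2, the gene that rose (1.99, adjusted p 0.0025), whereas Vil1 fell (-1.39, 0.021). The Cdh17 call was lost without Prox1 OE replicate 2 (adjusted p 0.065) and without the mean-variance trend (0.051), and its estimate ran from -3.79 to -2.44 as libraries were left out in turn.

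Cdh11 encodes OB-cadherin, a cadherin of mesenchymal cells. Its values were 126.5 and 106.0 in Control and 29.65, 28.32 and 56.71 in Prox1 OE, lower in every Prox1 OE library (-1.65, SE 0.37, adjusted p 0.015). Without Prox1 OE replicate 2 the adjusted p was 0.05. Of 11 mesenchymal markers, 5 fell and 1 rose, with a median log2 fold change of -0.32. The sum of those markers was 155232 to 161250 in Control and 87473 to 102020 in Prox1 OE, whereas Pdgfrb, the receptor that marks pericytes and fibroblasts, read 1934 and 1572 against 1640, 1698 and 1603 (-0.08, adjusted p 0.65). Mesothelial markers also fell, 3 of 4, from a summed level of 153.4 to 286.7 down to 22.42 to 49.08. Whether either list has a part in the fall of Cdh11 was not tested.

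Cdh2 encodes N-cadherin, which hepatocytes carry alongside E-cadherin. It read 2300 and 2063 in Control and 3119, 2250 and 2296 in Prox1 OE. The groups overlapped and no change was called (0.21, SE 0.17, adjusted p 0.35). The ratio of Cdh1 to Cdh2 counts was 11.4 and 11.9 in Control and 4.19, 5.35 and 4.02 in Prox1 OE, a log2 difference of -1.37 with no overlap. An exact two-sided permutation test gave p = 0.1, the smallest that 2 against 3 samples allow.

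Cdh5, the vascular endothelial cadherin, read 2244 and 2628 in Control and 1881, 1725 and 2230 in Prox1 OE. Its Prox1 OE values were all lower, the highest by little, and it did not pass (-0.33, SE 0.15, adjusted p 0.12). When libraries were scaled by total reads it was called lower, at -0.76 (adjusted p 0.0033). That scaling moved the median of all genes to -0.447, from -0.015. Among 10 other endothelial markers, 2 rose (Stab2 and Tek), none fell, and the median log2 fold change was 0.10. Their sums overlapped, at 12278 to 15116 in Control and 13377 to 17968 in Prox1 OE.

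The other 8 cadherins gave no call. Cdh16, a kidney tubule cadherin, was unlike the rest in that 1 Prox1 OE library held most of its counts. It read 1113 in Prox1 OE replicate 1, against 264.3 and 98.37 in the others and 447.8 and 267.0 in Control. Cdh8 likewise rested on 1 library, with 94.48 in Control replicate 1 and 3.391 in replicate 2, then 9.202, 0 and 0 in Prox1 OE. Cdh26, an epithelial cadherin known from inflamed mucosa, had the largest estimate upwards, 1.49 (SE 0.53, adjusted p 0.065), with 23.00 and 22.89 in Control and 36.81, 136.9 and 57.87 in Prox1 OE. DESeq2 called it higher (adjusted p 0.014). Cdh13, which is tethered to the membrane by a lipid and lacks a cytoplasmic tail, had an estimate of -0.57 (adjusted p 0.083), and Cdh24 had -0.91 (0.087). Cdh4, Cdh9 and Cdh18 had estimates between 0.09 and 0.37.

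**Figure D2:**
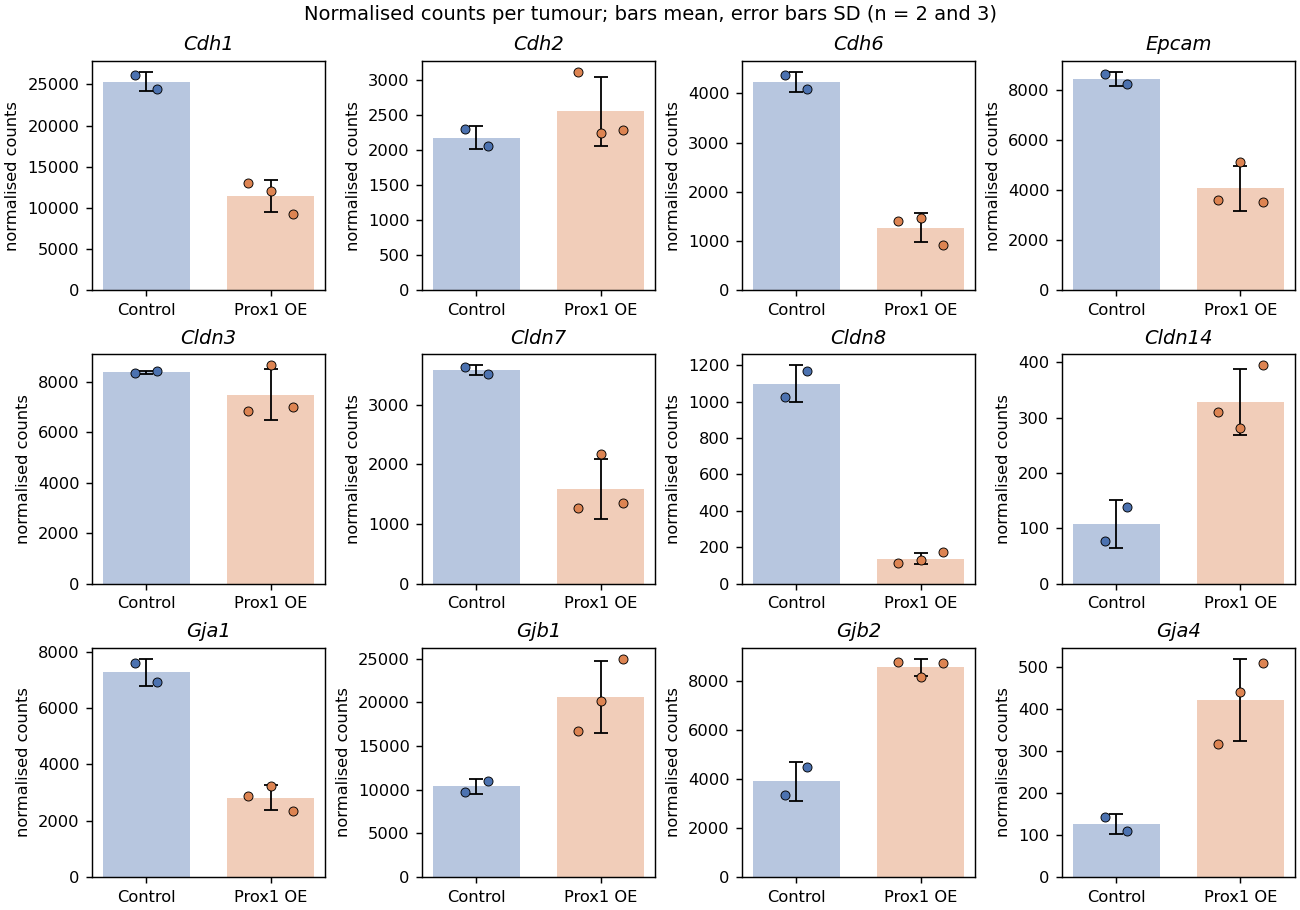
Normalised counts of 12 genes, 1 panel each with its own linear axis from 0, as points per library over bars at the group mean with error bars of 1 SD (Control n = 2, Prox1 OE n = 3). For Cdh1, Cdh6, Epcam, Cldn7, Cldn8 and Gja1 all Prox1 OE points lie below both Control points, for Cldn14, Gjb1, Gjb2 and Gja4 all lie above them, and for Cdh2 and Cldn3 the groups overlap.

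Epcam encodes a surface glycoprotein of simple epithelia that marks bile duct and progenitor cells rather than mature hepatocytes (chromosome 17, 87635979 to 87651129). It read 8657 and 8268 in Control and 3606, 5131 and 3515 in Prox1 OE, a log2 fold change of -1.07 (SE 0.18, adjusted p 0.0052). All Prox1 OE libraries were below both Control libraries. The ratio of Epcam to Cdh1 did not separate the groups, at 0.331 and 0.338 against 0.276, 0.426 and 0.38. The log2 difference was 0.09 and the exact two-sided permutation p was 0.7. Among genes of the protease system that acts on EpCAM, the inhibitor gene Spint1 (-1.02, adjusted p 0.009) and the protease gene St14, or matriptase (-0.84, 0.015), fell, and Spint2 had -0.30 without passing.

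Among claudins, Cldn3 and Cldn2 gave no call. Cldn3, a barrier claudin shared by hepatocytes and bile duct cells, read 8341 and 8416 in Control and 6826, 8652 and 6993 in Prox1 OE. The groups overlapped and no change was called (-0.17, SE 0.14, adjusted p 0.37). Cldn2, which forms a channel for cations and water, read 4553 and 5774 in Control and 5431, 4548 and 5302 in Prox1 OE, also overlapping (-0.01, SE 0.15, adjusted p 0.95). Scaling by total reads called both lower, at -0.60 (adjusted p 0.016) and -0.45 (0.034). Cldn1, a barrier claudin needed for the tightness of skin and bile ducts, was higher in every Prox1 OE library, with 806.8 and 1151 in Control and 1402, 1263 and 2180 in Prox1 OE, but did not pass (0.70, SE 0.26, adjusted p 0.072). Cldn5, the claudin of endothelial cells, had the same pattern, with 276.0 and 418.7 against 455.0, 607.7 and 540.5 (0.64, SE 0.22, adjusted p 0.061). DESeq2 called both higher, with adjusted p of 0.032 for Cldn1 and 0.038 for Cldn5.

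The 5 claudins that fell varied in level. Cldn7, a claudin of ducts and other simple epithelia that binds EpCAM along the lateral membrane, went from 3639 and 3520 to 1263, 2170 and 1345 (-1.21, SE 0.23, adjusted p 0.0079). Cldn8, known from the distal kidney tubule, went from 1026 and 1170 to 112.5, 127.4 and 172.4 (-3.01, SE 0.22, adjusted p 0.0014). Its Control mean was 7.99 times its Prox1 OE mean, and the groups lay far apart. Cldn4 encodes a claudin of simple epithelia known as a receptor for a clostridial enterotoxin. It read 140.5 and 270.4 in Control and 57.26, 16.52 and 13.89 in Prox1 OE, where replicate 1 stood above the other 2 libraries (-2.98, SE 0.61, adjusted p 0.011). Its estimate ran from -3.60 to -2.51 as libraries were left out. Cldn3 and Cldn4 face away from each other on chromosome 5 with 39.3 kb between them, and of the pair Cldn4 alone was called.

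Cldn10, which forms ion-selective pores, was near the minimum throughout, with 28.75 and 43.23 in Control and 9.202, 7.08 and 6.944 in Prox1 OE (-2.06, SE 0.43, adjusted p 0.011). Cldn11, the claudin of myelin and of the barrier in the testis, had the largest change of the 40 genes. It read 1043 and 196.7 in Control, which differ from each other several-fold, and 10.22, 7.08 and 2.315 in Prox1 OE (-6.08, SE 0.78, adjusted p 0.0028). All Prox1 OE libraries were far below the lower Control library. Without Control replicate 1 the log2 fold change was -4.88, and without Control replicate 2 it was -7.28. Of 4 Schwann cell markers, 3 passed the minimum and 1, S100b, fell. That list, nearly all of it S100b, summed to 4403 to 4490 in Control and 1344 to 2526 in Prox1 OE.

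Cldn14, a claudin known from the inner ear, kidney and liver, was the single claudin called higher. It read 76.41 and 139.0 in Control and 309.8, 280.8 and 394.7 in Prox1 OE, all above both Control values (1.65, SE 0.29, adjusted p 0.0066). The remaining 4 claudins gave no call, with estimates of 0.53 for Cldn15, 0.07 for Cldn12, 0.05 for Cldn23 and -0.06 for Cldn6. Cldn6, a claudin of embryonic epithelia, overlapped between the groups at 223.8 and 336.0 against 195.6 to 396.5, and its neighbour Cldn9, 137 bases away, was below the minimum.

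Because these tumours carry NICD, whose DNA-binding partner is RBPJ, promoters were searched on both strands for the RBPJ core TGGGAA. They were also searched for AACCNGTT, a core of grainyhead-like (GRHL) factors, and for CAAAGTCCA, a core of HNF4A, 2 epithelial and hepatocyte regulators. RefSeq promoters (GRCm38.p6, 250 bases before to 50 after each start) were at hand for 26 of the 40 genes. TGGGAA was found in 10 of these 26 (38.5%), against 28.3% of all 27025 genes with a promoter, in 4 of the 8 called lower with a promoter and in 2 of the 5 called higher. AACCNGTT was in 1 of 26, Cldn5, against 2.35% of all, and CAAAGTCCA in 0 of 26 against 0.555%. The promoters of Cldn11 and Cldn14, the claudin with the largest fall and the one that rose, are shown as 80-base stretches from 5′ to 3′ on the strand of the gene, with capitals marking the motif on either strand. The Cldn11 match began 163 bases before the start, that of the first Cldn14 start 222 before, and those of the second Cldn14 start 120 and 87 before.
Cldn11 (chr3:31149720-31149799, plus strand): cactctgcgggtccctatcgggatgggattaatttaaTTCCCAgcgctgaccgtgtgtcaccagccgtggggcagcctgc
Cldn14, first start (chr16:94009008-94009087, minus strand): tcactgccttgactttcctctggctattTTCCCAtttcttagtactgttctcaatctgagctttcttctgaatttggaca
Cldn14, second start (chr16:93929895-93929974, minus strand): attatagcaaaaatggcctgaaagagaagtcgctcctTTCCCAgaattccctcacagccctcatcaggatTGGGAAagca
The core thus occurred upstream of a gene that fell and of one that rose, in windows that held no annotated exon.

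Connexins moved in both directions. Gjb1, the main connexin of hepatocytes, read 9764 and 10982 in Control and 16729, 20174 and 25003 in Prox1 OE. All Prox1 OE libraries were higher, with a log2 fold change of 0.98 (SE 0.18, adjusted p 0.0079). Gjb2, its partner in hepatocyte gap junctions, rose from 3346 and 4481 to 8791, 8165 and 8765 (1.15, SE 0.15, adjusted p 0.0028), and its 3 Prox1 OE values lay close together. The hepatocyte markers Alb and Hnf4a rose in the same libraries, by 1.69 (adjusted p 0.043) and 1.15 (0.0033). Gja1, the most widespread connexin, used by bile duct, mesenchymal and vascular cells, fell from 7611 and 6922 to 2875, 3234 and 2344 (-1.38, SE 0.15, adjusted p 0.0025). The bile duct keratin gene Krt19 fell by 2.41 on the log2 scale (adjusted p 0.0014).

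The ratio of Gjb1 to Gja1 counts was 1.28 and 1.59 in Control and 5.82, 6.24 and 10.7 in Prox1 OE. The groups did not overlap, the log2 difference was 2.35, and the exact two-sided permutation p was 0.1, again the smallest the design allows. Gja4, known from arterial endothelium and the ovary, read 143.0 and 109.3 in Control and 317.0, 439.0 and 509.2 in Prox1 OE, higher in all 3 (1.72, SE 0.25, adjusted p 0.0036). Gja5, another arterial connexin, read 299.1 and 288.2 in Control and 441.7, 455.5 and 391.2 in Prox1 OE (0.54, SE 0.16, adjusted p 0.034). Its call was lost without Prox1 OE replicate 2 (adjusted p 0.093) and when libraries were scaled by total reads (log2 fold change 0.11, adjusted p 0.67). Its locus overlaps Gpr89 on the other strand, which averaged 2247 normalised counts, and since the strand setting of the counting was not stated the Gja5 level is uncertain.

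Among other connexins, Gjc1 had -0.83 (adjusted p 0.051), with 110.9 and 106.0 in Control and 66.46, 48.38 and 69.44 in Prox1 OE. Gjc1 was called lower in 7 of 16 alternatives, DESeq2 and the replicate block among them. Gjc3 had 0.63, without a call. Below the minimum, Gja3, a lens connexin, had no read in Control but stood at 23.52, 15.34 and 4.63 with Prox1 OE. The mean of the latter, 14.5, was at least 5.8-fold higher than the floor of 3 reads per Control library. Gjb5, a skin connexin, was at or below that floor in Prox1 OE and at least 4.69-fold lower there than its Control values of 21.36 and 10.17.

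Genes that lie side by side were compared as well. On chromosome 14, Gjb2 was called higher, its neighbour Gja3 was read in Prox1 OE only, and Gjb6, 18.6 kb away, had no read. Cdh3 and Cdh1 were both called lower, and of Cldn4 and Cldn3 the former was called lower and the latter overlapped between the groups.

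**Figure D3:**
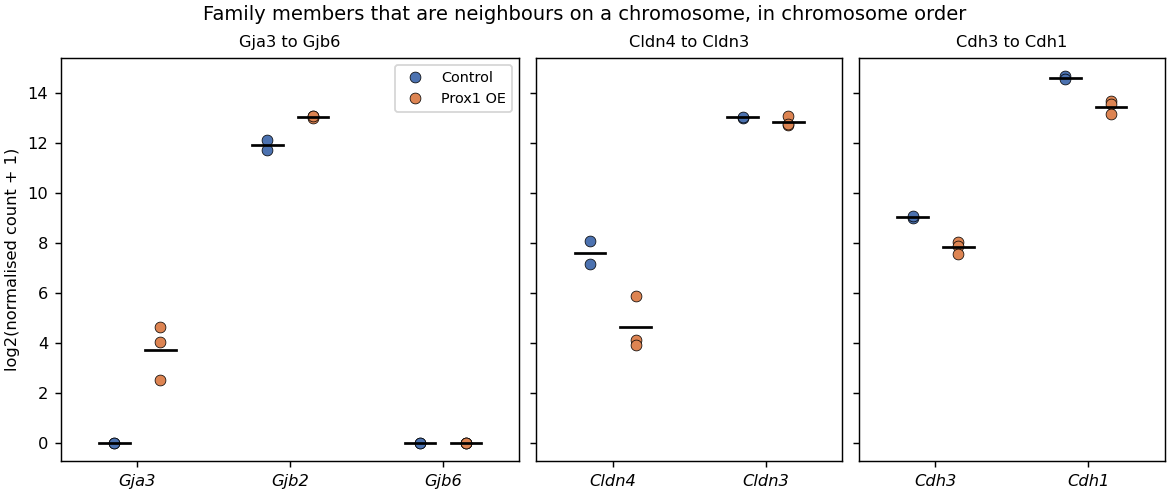
Log2(normalised count + 1) per library (y axis) for family genes that lie beside each other, in chromosome order with 1 panel per cluster, blue for Control, orange for Prox1 OE and a short line at each group mean. Gja3 is at 0 in Control, Gjb6 is at 0 throughout, and Cdh3 and Cdh1 both lie lower in Prox1 OE.

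Levels were set beside each other across genes by dividing them by exon length, counted over all annotated exons of a gene. That length can exceed the length of the transcript in use, so comparisons between genes on this scale depend on the annotation. Summed over each family on this scale, normalised counts per kb were 12100 and 12400 in Control and 9290, 11000 and 9770 in Prox1 OE for claudins, and 7800 and 7310 against 4420, 3830 and 3160 for cadherins. For connexins they were 8100 and 9190 against 14100, 15900 and 19000. By that measure the connexin sum was above the claudin sum in every Prox1 OE library and below it in both Control libraries.

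As a share of the per-kb claudin sum, Cldn3 held 54.9% and 54.1% in Control and 58.3%, 62.3% and 56.9% in Prox1 OE, and Cldn7 held 15.5% and 14.6% against 6.97%, 10.1% and 7.07%. Cldn8 fell to a minor share, from 3.61% and 4.02% to 0.514%, 0.491% and 0.749%. Cldn2 overlapped, at 11.3% and 14.1% against 17.6%, 12.4% and 16.3%. Cdh1 held most of the cadherin sum in every library, with 73.3% and 73.2% in Control and 64.6%, 68.6% and 64.0% in Prox1 OE. Cdh2 took a larger share in Prox1 OE, with 3.66% and 3.50% in Control and 8.74%, 7.27% and 9.02% in Prox1 OE. Among connexins the shares of Gjb1 and Gjb2 overlapped between the groups. Gjb1 held 70.7% and 70.0% against 69.6%, 74.1% and 77.2%, while Gja1 went from 9.17% and 7.34% to 1.99%, 1.98% and 1.20%.

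**Figure D4:**
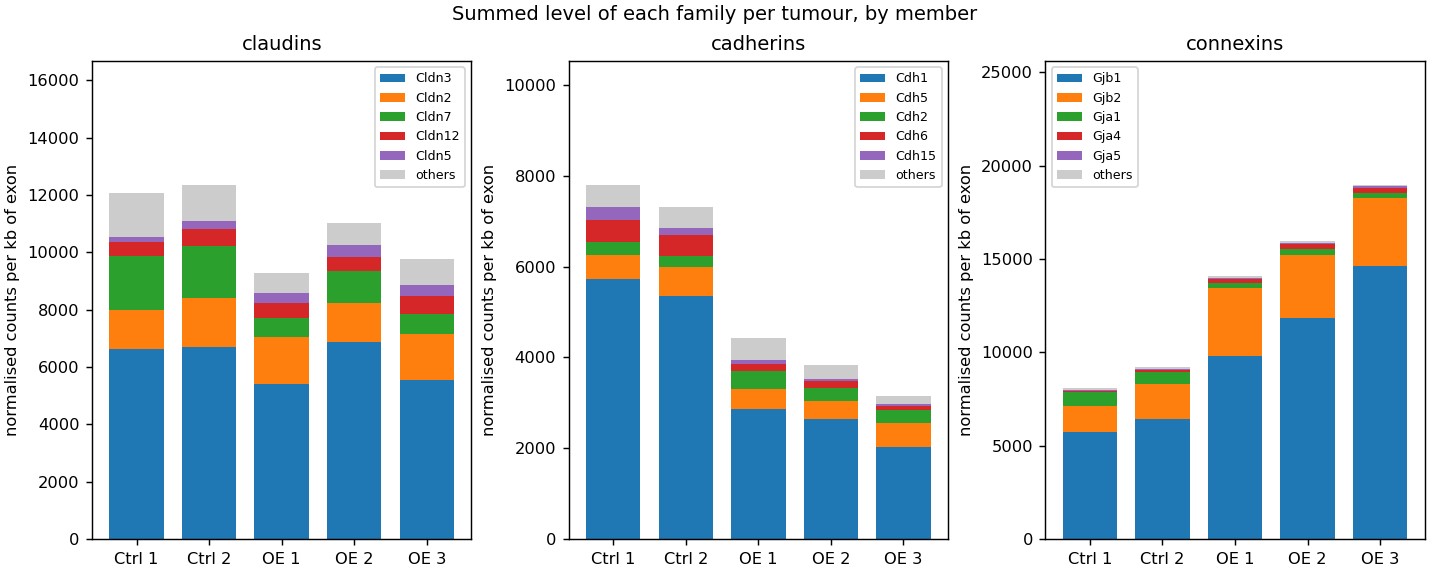
Summed level of each family in each library (y axis, normalised counts per kb of exon, linear from 0), stacked by gene, with the 5 genes of highest mean named and the rest in grey; Ctrl 1 and 2 are the Control replicates and OE 1 to 3 the Prox1 OE replicates. The cadherin stack is lower in Prox1 OE (3160 to 4420) than in Control (7310 to 7800), the connexin stack is higher (14100 to 19000 against 8100 to 9190), and Cldn3, Cdh1 and Gjb1 form the largest band in every library.

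Other junction genes were taken from 6 lists of proteins that bind or resemble the 3 families. Of 76 genes, 65 passed the minimum, of which 6 were higher (9.23%) and 28 were lower (43.1%), with a median log2 fold change of -0.52. The same background of 17.1% and 16.2% applies. These lists were chosen with earlier results of these data known, so the shares are a description and not an independent test. The count lower was 2 without Control replicate 1, 7 without Control replicate 2 and 15 without Prox1 OE replicate 2, and scaling by total reads gave 3 higher and 47 lower. Of 22 tight junction partners 11 fell and 1 rose. Pard6b, of the apical polarity complex, had -1.25 (adjusted p 0.0037), the junctional plaque protein cingulin, Cgn, had -0.78 (0.0043), Ildr1, of the junctions where 3 cells meet, had -0.96 (0.007), and the scaffold Magi3 had -0.94 (0.0081). Tjp1, the ZO scaffold that links claudins to actin, was also lower (-0.89, adjusted p 0.029). The gene that rose was Lsr, a relative of Ildr1 (0.49, adjusted p 0.023). Ocln, or occludin, had -0.35 and did not pass (0.051).

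Of 13 adherens junction partners 6 fell and 1 rose. Nectin1, a nectin that seeds adherens junctions, rose by 1.00 (adjusted p 0.0033). The nectin-binding protein afadin, Afdn, fell (-0.62, adjusted p 0.0068), as did Ctnna2 (-1.69, 0.01) and Plekha7 (-0.94, 0.012). Ctnnb1, the beta-catenin that cadherin tails bind, was lower too (-0.67, adjusted p 0.02), and alpha-catenin, Ctnna1, had -0.35 (0.061) without passing. Of 10 desmosome genes 3 fell, the desmosomal cadherins Dsg2 (-0.98, adjusted p 0.0048) and Dsc2 (-0.64, 0.0068) and the plaque protein Dsp (-1.21, 0.0077), and Perp rose (0.71, 0.021).

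In the wider cadherin superfamily 16 of 19 genes passed the minimum, 3 rose and 5 fell. Clstn3, a calsyntenin, rose by 2.02 (adjusted p 0.0022), the brush border protocadherin Cdhr5 by 0.91 (0.0029) and the endothelial protocadherin Pcdh12 by 0.75 (0.014), and the giant cadherin Fat1 fell (-0.87, 0.014). Of 7 other connexins and pannexins 1 passed the minimum, the channel gene Panx1 (-0.60, adjusted p 0.034). Gjd2, Gjd3, Gjd4, Gje1 and Panx3 were at or below 3 reads in every library.

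Regulators known to act on junction genes were also read. Of 14 tested, 8 fell (57.1%) and 2 rose (14.3%), against 16.2% and 17.1% of all genes. The list was chosen with earlier results of these data known, so these shares are a description and not an independent test. Grhl2, a grainyhead-like activator of Cdh1 and claudin genes in epithelia, stood at 745.2 and 801.9 in Control and at 274, 250.2 and 214.1 in Prox1 OE (-1.65, adjusted p 0.0023). Esrp1, an epithelial splicing regulator, stood at 859.4 and 1046 against 119.6, 207.7 and 120.4 (-2.71, adjusted p 0.0023). Its paralogue Esrp2 rose, from 2216 and 2430 to 3278, 2843 and 3327 (0.44, adjusted p 0.031). Klf5 (-1.44, 0.0031) and Ehf (-1.45, 0.0035), epithelial transcription factors, fell too. Among genes of Cdh1 repressors, Snai1 fell (-0.61), Snai2 rose (0.83, adjusted p 0.035), and Zeb1 (-0.03) and Zeb2 (-0.44) gave no call.

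**Figure D5:**
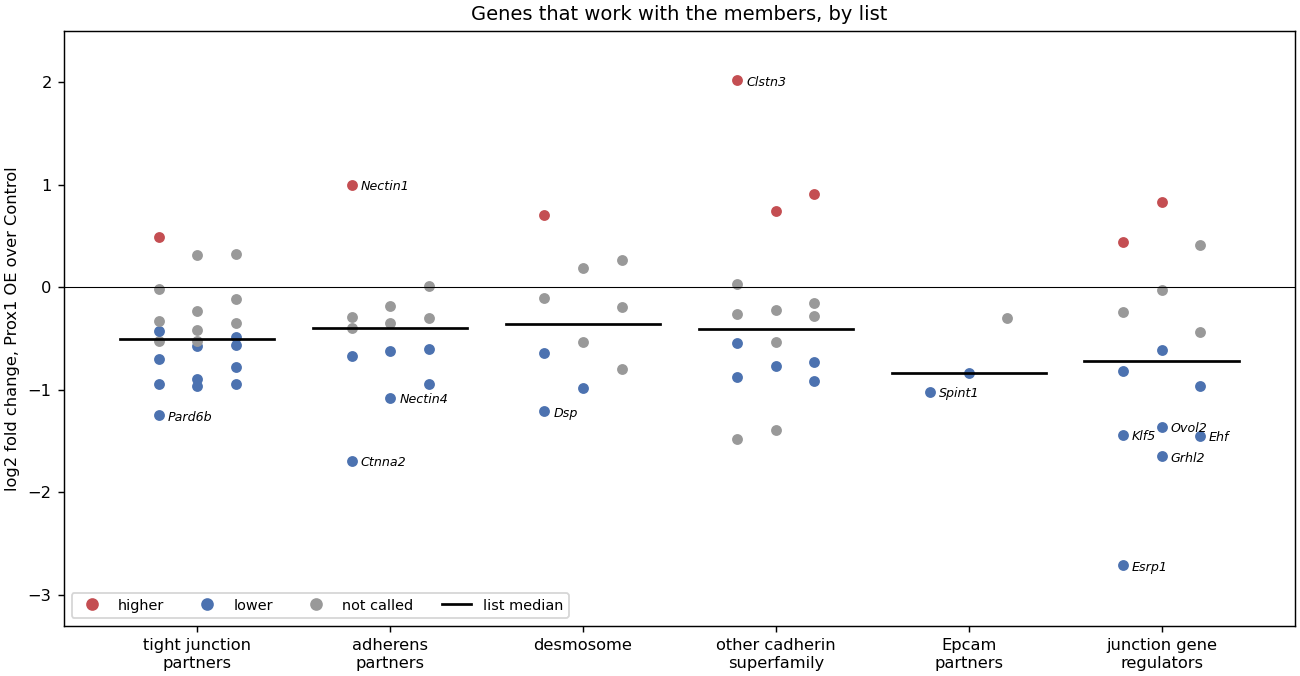
Log2 fold change (y axis, Prox1 OE over Control) of each tested gene in 5 junction partner lists and the regulator list, 1 point per gene, red called higher, blue lower and grey not called by limma, with a line at each list's median and names for called genes of at least 1 in either direction. List medians lie between -0.84 and -0.36, with Esrp1 lowest at -2.71 and Clstn3 highest at 2.02; Panx1, alone in its list, is not drawn.

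The calls differed in how far they rested on single libraries. In each alternative setting and with each library left out, 7 genes were called in the same direction: Cdh1, Cdh6, Cldn8, Cldn11 and Gja1 lower, and Gjb2 and Gja4 higher. Without Control replicate 1, which leaves 1 Control library, the counts over the 40 genes were 2 higher and 5 lower. Those missing the threshold there included Cdh3 (adjusted p 0.056), Cdh11 (0.13), Cdh15 (0.088), Cdh17 (0.053), Cldn4 (0.05), Cldn7 (0.069), Cldn10 (0.056), Cldn14 (0.062), Epcam (0.057), Gja5 (0.2) and Gjb1 (0.09), each in its former direction. Without Control replicate 2 the calls lost included Cdh11 (0.072), Cdh17 (0.12), Cldn4 (0.084), Cldn10 (0.091) and Gja5 (0.2).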

How the data were processed

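Strand-preserving (dUTP) libraries were sequenced as read pairs by the authors and mapped with STAR to mouse build mm10. Which tool counted reads, with which strand setting, and how reads matching several genes were handled are not given in the sources used here. The deposited signal per gene and library is a read count divided by a DESeq2 size factor. All values were whole multiples of 1 read (100%, tolerance 0.01 of a read), so reads were recovered, at 48740863 to 56629477 per library. A further table of the authors' own DESeq2 comparison (means, shrunken log2 fold changes, p-values) was not used. Unassigned columns numbered 0.

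Groups followed the labels. Genes averaging 10 or more normalised counts were tested with limma 3.58.1 (R 4.3.3, lmFit and eBayes with trend, two-sided) on log2(normalised count + 1), with Benjamini-Hochberg adjustment over 17105 genes calling genes under 0.05. Fold changes use that scale unless an alternative setting is named, and it understates those of low genes. A floor of 3 reads gave bounds, which cover counting error only. Ratios within a library were compared by exact permutation. Symbols and coordinates came from GENCODE for GRCm38 (55137 of 55397 identifiers, 99.5%) and promoters from RefSeq. Replicates were distinct libraries (chi-square over degrees of freedom was 39.8 for the Control pair and 80.8 to 126 for Prox1 OE pairs). The labels name no batch.

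The genes and lists were chosen with earlier results of these data known. Values in every library were given for genes with an adjusted p under 0.05 and an absolute log2 fold change of at least 1, and for Epcam, Cdh1, Cdh2, Cdh5, Cdh11, Cldn1, Cldn2, Cldn3, Cldn5, Gja1, Gjb1 and Gjb2, and up to 4 genes of each list by smallest adjusted p. Values of Cdh8, Cdh16, Cdh26, Cldn6, Gja3, Gja5, Gjb5 and Gjc1, and list genes beyond those 4, were added after their values were seen. Alternatives were TMM, upper-quartile and total-count scaling, pseudocounts of 0.1 and 10, a minimum mean of 50 or none, and limma with no trend. Recovered reads were also tested with the quasi-likelihood test of edgeR 4.0.16 and with DESeq2 1.42.0, replicate number was added as a block, and libraries were dropped one by one. The procedure was also run on simulated data in which far fewer genes changed than were called here, and its outcome is not used as support. A few genes enter the counts but their values are not reported here.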

Additional observations from a re-analysis of the deposited data

How the results depend on the processing

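Of 302 alternative values for the 19 called genes, 275 kept the call, 27 missed the threshold and 0 reversed. The count higher (5 in the report) was 8 with DESeq2 and 2 to 7 as each library was left out, and the count lower (14) was 5 to 15, with 5 without Control replicate 1 and 10 without Control replicate 2. With a Control library out, the lone sample is assumed to vary like the other group. Junction partners called higher (6) were 3 with the total count and 3 to 7 leaving libraries out. Those called lower (28) were 47 with the total count, 17 without the trend and 2 to 35 leaving libraries out, with 2 without Control replicate 1, 7 without Control replicate 2 and 15 without Prox1 OE replicate 2. The total count called 1472 genes higher and 6855 lower of all tested, and of the 40 genes it gave 4 higher and 20 lower. The Prox1 log2 fold change (1.90) was 2.35 with edgeR (adjusted p 0.048) and 1.12 to 2.39 leaving libraries out. The log2 difference of the Epcam to Cdh1 ratio was -0.05 to 0.27, with -0.05 without Prox1 OE replicate 2.

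With replicates 1 and 2 as a block, 7 genes were higher and 17 lower, and Prox1 had 2.39 (adjusted p 0.0013). Deviations of same-numbered libraries correlated at 0.14 and 0.02, with 2 pairs, so the numbers were not taken as a pairing.

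Among the 40 genes, the signs that turned belonged to genes without a call. With the total count these included Cdh2 (-0.22), Cdh4 (-0.33), Cdh9 (-0.03), Cdh18 (-0.20), Cldn12 (-0.36) and Cldn23 (-0.37). Cdh16 was 0.47 with edgeR, 0.46 with DESeq2 and 0.65 with the block. Cldn2 was 0.00 with TMM, and Cldn12 was -0.04 and Cldn6 0.15 with the block. Leaving libraries out, the ranges were -1.09 to 0.65 for Cdh16, -0.19 to 0.16 for Cldn2, -0.36 to 0.23 for Cldn6, -0.05 to 0.20 for Cldn12 and -0.10 to 0.23 for Cldn23. The cause of these changes was not tested. Genes near the minimum rest on few reads.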
